A study of Arabidopsis thaliana with 24 samples.

Results

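The BZR1 family comprises the plant-specific transcription factors BZR1, BES1 (also named BZR2), BEH1, BEH2, BEH3 and BEH4, which end the brassinosteroid (BR) signalling chain. Its 6 members were taken by locus, and all 6 were found among the 32678 loci of the read count table. Seedlings of Arabidopsis thaliana were sequenced in 24 libraries that form 8 groups of 3: genotype cpd or bri1-701 brl1 brl3, age 7 or 24 days, and no treatment or brassinolide (BL), the most active BR. The cpd mutant lacks normal function of CPD, a cytochrome P450 of BR biosynthesis, and keeps its receptors. The triple mutant bri1-701 brl1 brl3 carries mutations of the receptor kinase gene BRI1 and of BRL1 and BRL3, which encode related BR receptors, and no wild type group was used here. The sources used here state neither the dose of BL nor how long it was given. They do not say either whether replicates were grown apart, and p-values therefore reflect variation among libraries that may be technical.

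In BR signalling, perception of the hormone by BRI1 and its co-receptor BAK1 leads to inactivation of the GSK3-like kinase BIN2. BIN2 phosphorylates BZR1 and BES1, which are then held by 14-3-3 proteins or degraded, whereas the dephosphorylated proteins act in the nucleus on BR-responsive genes. They bind the BR response element (BRRE), with the core CGTGCG or a variant of it, written CGTGTG. They also bind E-boxes, written CANNTG, of which the G-box, written CACGTG, is one. Control of the family is thus best known at the protein level, and the values here are transcript levels only.

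Library totals ranged from 10180880 to 12531699 counts at 7 days, and from 17243503 to 20563151 at 24 days. Replicates differed by 1.13 to 1.51 times the variance of counting alone at 7 days and by 6.37 to 59.1 times at 24 days (chi-square per degree of freedom), so equal changes passed the test more readily at 7 days. Levels are given as CPM, counts scaled to a common library total. At 7 days without BL, CPD stood at 69.2 ± 3.6 CPM (SD, n = 3) in cpd and at 439 ± 4.3 CPM in the receptor mutant; BRI1 stood at 171 ± 5.5 and 48.9 ± 1.7 CPM. The 3 leaf markers summed to 2000 to 3260 CPM in every library, whereas the 5 root markers summed to 1.1 to 2.74 CPM at 7 days and to 4.9 to 9.87 CPM at 24 days, low values for tissue labelled as seedling. Within the 24-day groups the root markers were highest in replicate 3. Leaf markers moved with BL at 7 days. All 3 were called higher in cpd (median log2 change 0.40), beside 27.7% of all genes called higher. Their sum in cpd went from 2470 to 2560 CPM to 3200 to 3260 CPM without overlap. All 3 were also called higher in the triple mutant (median 0.25), beside 22.4% of all genes called in either direction, of which 11% of all genes were lower and the rest higher. At 24 days their median log2 differences with BL were -0.17 in cpd and -0.18 in the triple mutant. The part of these shifts in the results was not tested.

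The stretches of 300 bases before the annotated starts of the 4 members with the clearest BL responses are shown because they differ in BR response motifs. They are RefSeq sequences of the TAIR10.1 build, 5′ to 3′ on the strand of the gene, with every BRRE core, BRRE variant and G-box, on either strand, in capitals:
BEH2 (chr4:17334356-17334655, minus strand): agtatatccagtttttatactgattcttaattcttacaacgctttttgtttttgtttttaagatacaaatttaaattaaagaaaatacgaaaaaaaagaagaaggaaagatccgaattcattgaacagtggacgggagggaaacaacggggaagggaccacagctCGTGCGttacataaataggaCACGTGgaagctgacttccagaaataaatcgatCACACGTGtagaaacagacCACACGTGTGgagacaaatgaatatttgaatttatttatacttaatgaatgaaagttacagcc
BEH1 (chr3:18863398-18863697, minus strand): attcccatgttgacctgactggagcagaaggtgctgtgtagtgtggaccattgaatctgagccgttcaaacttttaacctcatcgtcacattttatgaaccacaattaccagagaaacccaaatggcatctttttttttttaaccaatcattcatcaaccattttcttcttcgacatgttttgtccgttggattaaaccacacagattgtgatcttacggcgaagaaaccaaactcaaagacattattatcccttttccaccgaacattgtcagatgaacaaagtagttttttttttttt
BES1 (chr1:6688163-6688462, plus strand): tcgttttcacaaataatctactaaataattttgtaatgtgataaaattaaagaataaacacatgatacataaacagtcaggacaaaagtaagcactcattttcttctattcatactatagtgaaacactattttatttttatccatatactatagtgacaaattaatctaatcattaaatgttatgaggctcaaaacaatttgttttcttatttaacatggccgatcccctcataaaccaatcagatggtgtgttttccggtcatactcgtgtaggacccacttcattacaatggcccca
BZR1 (chr1:28185204-28185503, plus strand): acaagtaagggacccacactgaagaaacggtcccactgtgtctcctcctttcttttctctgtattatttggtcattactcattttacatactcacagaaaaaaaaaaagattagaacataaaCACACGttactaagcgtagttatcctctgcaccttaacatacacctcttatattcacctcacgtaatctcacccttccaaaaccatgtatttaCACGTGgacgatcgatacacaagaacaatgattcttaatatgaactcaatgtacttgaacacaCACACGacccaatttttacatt

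The BEH2 window held 1 BRRE core, at 135 to 130 bases before the gene start, 3 G-boxes and 3 BRRE variants, all within the last 135 bases. A G-box lay at 115 to 110 bases, and the others, at 80 to 75 and 61 to 56 bases, each overlapped BRRE variants in the longer runs seen in capitals. Among 26707 promoters of the same length, 1.797% held the BRRE core, 6.137% the variant, 7.185% a G-box and 0.12% 3 or more G-boxes, on either strand. A BRRE core together with 3 or more G-boxes occurred in 6 promoters, or 0.022%, a combination chosen after the BEH2 window was seen. The BZR1 window held 1 G-box and 2 BRRE variants, and that of BEH4 held 2 G-boxes, a number reached by 1.022% of promoters. None of the 3 motifs was in the windows of BES1, BEH1 and BEH3, although BES1 and BEH1 had 2 other E-boxes each, and 61.868% of all promoters had at least 1 E-box. The same letters were absent from the windows of the 7 genes listed as repressed targets (CPD, DWF4, ROT3, BR6OX1, BR6OX2, GLK1 and GLK2). Of the 7 induced targets 1 held any of them. Among all promoters 13.042% held any of the 3 motifs, and lists this short cannot be told apart from that share. These matches describe letters in a short window, not bound sites.

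**Figure D1:**
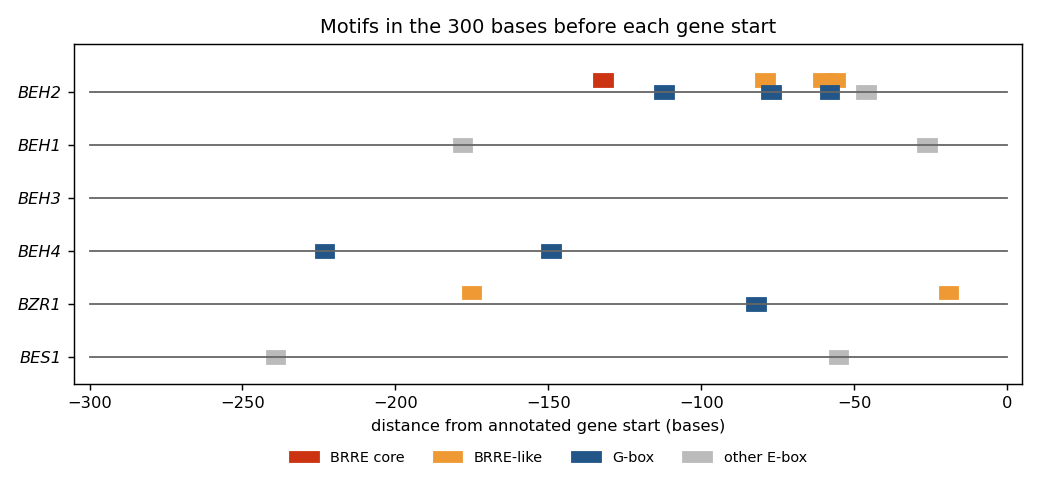
Positions of motifs in the 300 bases before each annotated gene start; the horizontal axis is the distance from the gene start in bases, each row is a family member, and boxes mark the BRRE core, the BRRE variant, the G-box and other E-boxes. BEH2 has 1 BRRE core and 3 G-boxes close to its start, and BEH3 has no motif in the window.

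BEH2 had the highest level per length of the family in every group except BL-treated cpd. In untreated 7-day cpd its 3 libraries had 148.9, 149.7 and 144 CPM, and with BL they had 16.72, 15.96 and 15.59 CPM. The groups lay far apart, with the highest treated library below all untreated ones. BEH2 (AT4G36780, chromosome 4, minus strand, 17332269 to 17334355 in TAIR10.1) fell by 3.20 ± 0.05 on the log2 scale (SE), or 9.18-fold. Its adjusted p was 1.68e-58; adjusted p-values here come from the quasi-likelihood test of edgeR, with Benjamini-Hochberg adjustment across the genes of the fit and a threshold of 0.05, unless another tool is named. At 24 days BEH2 went from 298.6, 204.3 and 273.2 CPM to 15.86, 21.7 and 25.15 CPM. It fell by 3.62 ± 0.17, or 12.3-fold (adjusted p = 4.82e-07). Untreated 24-day cpd was the widest of the BEH2 groups, yet its lowest library stood well above the highest treated one.

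BEH2 differed far less with BL in the triple mutant. At 7 days the untreated libraries had 171, 167 and 160.8 CPM and the treated ones 145, 150.4 and 143.6 CPM. The groups did not overlap, and the fall of 0.18 ± 0.03 on the log2 scale, or 1.13-fold, passed the test (adjusted p = 2.19e-05). With all 24 libraries in 1 fit, which uses 1 spread for both ages, its adjusted p was 0.502. At 24 days the levels were 315.3, 300.7 and 315.7 CPM without BL and 288.9, 270.7 and 308.6 CPM with BL, which overlapped. The log2 change of -0.10 had a 95% interval of -0.44 to 0.24 and was not called. The BL effect of the triple mutant differed from that of cpd by 3.02 ± 0.06 at 7 days (adjusted p = 2.13e-50) and by 3.52 ± 0.23 at 24 days (adjusted p = 1.35e-05).

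BES1, a founding member that activates and represses BR-responsive genes, moved the other way. Its 7-day cpd libraries had 28.97, 30.64 and 29.93 CPM without BL and 72.29, 68.19 and 69.96 CPM with BL. All treated libraries were above all untreated ones, and BES1 (AT1G19350, chromosome 1, plus strand, 6688463 to 6691216) rose by 1.23 ± 0.06 on the log2 scale, 2.35-fold (adjusted p = 8.01e-31). At 24 days the libraries had 96.58, 98.81 and 100.5 CPM without BL and 171.2, 174.9 and 193 CPM with BL. The groups were again apart, with a rise of 0.87 ± 0.09, or 1.82-fold (adjusted p = 0.000148).

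Triple mutant libraries had 33.29, 30.87 and 27.67 CPM of BES1 without BL at 7 days and 32.22, 33.74 and 30.26 CPM with BL. At 24 days they had 120.7, 120.6 and 101.9 CPM, and 118.3, 102 and 102.9 CPM with BL. Treated and untreated libraries overlapped at both ages, and neither change was called (95% intervals of -0.06 to 0.21 and -0.28 to 0.11 on the log2 scale). The BL effect on BES1 was lower in the triple mutant than in cpd by 1.16 ± 0.09 at 7 days (adjusted p = 1.04e-18) and by 0.96 ± 0.13 at 24 days (adjusted p = 0.00223).

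BZR1, the closest relative of BES1 and a repressor of BR biosynthesis genes, rose less. In 7-day cpd it had 27.38, 27.38 and 28.33 CPM without BL and 37.77, 41.15 and 36.75 CPM with BL. The groups did not overlap, and BZR1 (AT1G75080, chromosome 1, plus strand, 28185504 to 28188075) rose by 0.48 ± 0.07 on the log2 scale, 1.39-fold (adjusted p = 1.84e-09). At 24 days the values were 67.74, 59.99 and 65.88 CPM without BL and 76.33, 70.5 and 79.81 CPM with BL. The log2 difference of 0.23 ± 0.07 missed the threshold (adjusted p = 0.0595) although the groups were apart. With the replicate number as a block it passed (adjusted p = 0.0247), as with DESeq2 (0.0292) and in the fit of all 24 libraries (0.0155). Over all 13 alternatives, 3 called it, and the adjusted p reached 0.246. In the triple mutant BZR1 overlapped between treated and untreated libraries at both ages, with log2 differences of 0.04 ± 0.07 and -0.03 ± 0.07. The BL effect on BZR1 was lower there than in cpd by 0.44 ± 0.09 at 7 days (adjusted p = 6.5e-05), and at 24 days that difference was not called (-0.25 ± 0.10, adjusted p = 0.21).

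BEH1, whose own targets are less well described, fell with BL in cpd. Its 7-day libraries had 21.54, 26.16 and 24.54 CPM without BL and 16.56, 16.04 and 14.58 CPM with BL. At 24 days they had 33.9, 33.08 and 26.75 CPM without BL and 13.61, 14.5 and 11.26 CPM with BL. The groups were apart at both ages. BEH1 (AT3G50750, chromosome 3, minus strand, 18861749 to 18863397) fell by 0.60 ± 0.08 on the log2 scale at 7 days (1.52-fold, adjusted p = 3.47e-09) and by 1.25 ± 0.13 at 24 days (2.38-fold, adjusted p = 0.000178).

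BEH1 in the triple mutant had 30.74, 32.09 and 27.58 CPM without BL at 7 days and 27, 26.47 and 23.32 CPM with BL. The groups did not overlap, and the fall of 0.23 ± 0.07 passed the test (adjusted p = 0.0178). Without replicate 1 or 2 of the untreated or replicate 3 of the treated triple mutant it was not called (adjusted p = 0.0602, 0.108 and 0.153). DESeq2 gave an adjusted p of 0.0897 and the fit of all 24 libraries one of 0.336. At 24 days the log2 difference was -0.08 ± 0.13 with overlapping groups. The BL effect on BEH1 was higher in the triple mutant than in cpd by 0.38 ± 0.11 at 7 days (adjusted p = 0.00464, and 0.127 in the fit of all 24 libraries) and by 1.17 ± 0.18 at 24 days (adjusted p = 0.00606).

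BEH4 and BEH3, the remaining homologues, had the smallest log2 changes of the family with BL in cpd at both ages. BEH4 (AT1G78700, chromosome 1, plus strand, 29599349 to 29601682) had 29.8, 31.97 and 31.62 CPM in untreated 7-day cpd and 30.65, 36.11 and 34.47 CPM with BL. These overlapped, as did the 24-day libraries (30.72 to 33.62 and 31.81 to 38.56 CPM), and the log2 differences of 0.12 ± 0.07 and 0.17 ± 0.10 were not called. Without replicate 1 of BL-treated 7-day cpd the first was called (0.18, adjusted p = 0.0212).

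BEH4 had a different pattern in the 7-day triple mutant. There it had 33.63, 37.1 and 35.76 CPM without BL and 25.69, 25.63 and 27.14 CPM with BL. Treated libraries lay below all untreated ones, and BEH4 fell by 0.43 ± 0.07 on the log2 scale, or 1.35-fold (adjusted p = 5.85e-07). This was the largest log2 change with BL among the 6 members in that group, and its BL effect differed from that in cpd by -0.55 ± 0.09 (adjusted p = 1.22e-06). At 24 days BEH4 overlapped between treated and untreated triple mutants (28.43 to 37.59 and 32.33 to 34.16 CPM; log2 difference 0.01 ± 0.10).

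BEH3 (AT4G18890, chromosome 4, plus strand, 10352386 to 10355555) had the lowest level per length of the family in all 8 groups, and its counts in single libraries ran from 55 to 84 at 7 days and from 141 to 237 at 24 days. In 7-day cpd it had 6.762, 5.803 and 7.083 CPM without BL and 4.876, 5.037 and 5.394 CPM with BL. The groups were narrowly apart, and BEH3 fell by 0.37 ± 0.14 on the log2 scale (adjusted p = 0.0237). This call was lost without replicate 1 or 3 of untreated cpd (adjusted p = 0.0779 and 0.0958), without replicate 1 or 2 of BL-treated cpd (0.0729 and 0.0595), with DESeq2 (0.103) and in the fit of all 24 libraries (0.16). At 24 days and in the triple mutant its treated and untreated libraries overlapped, and no change was called.

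**Figure D2:**
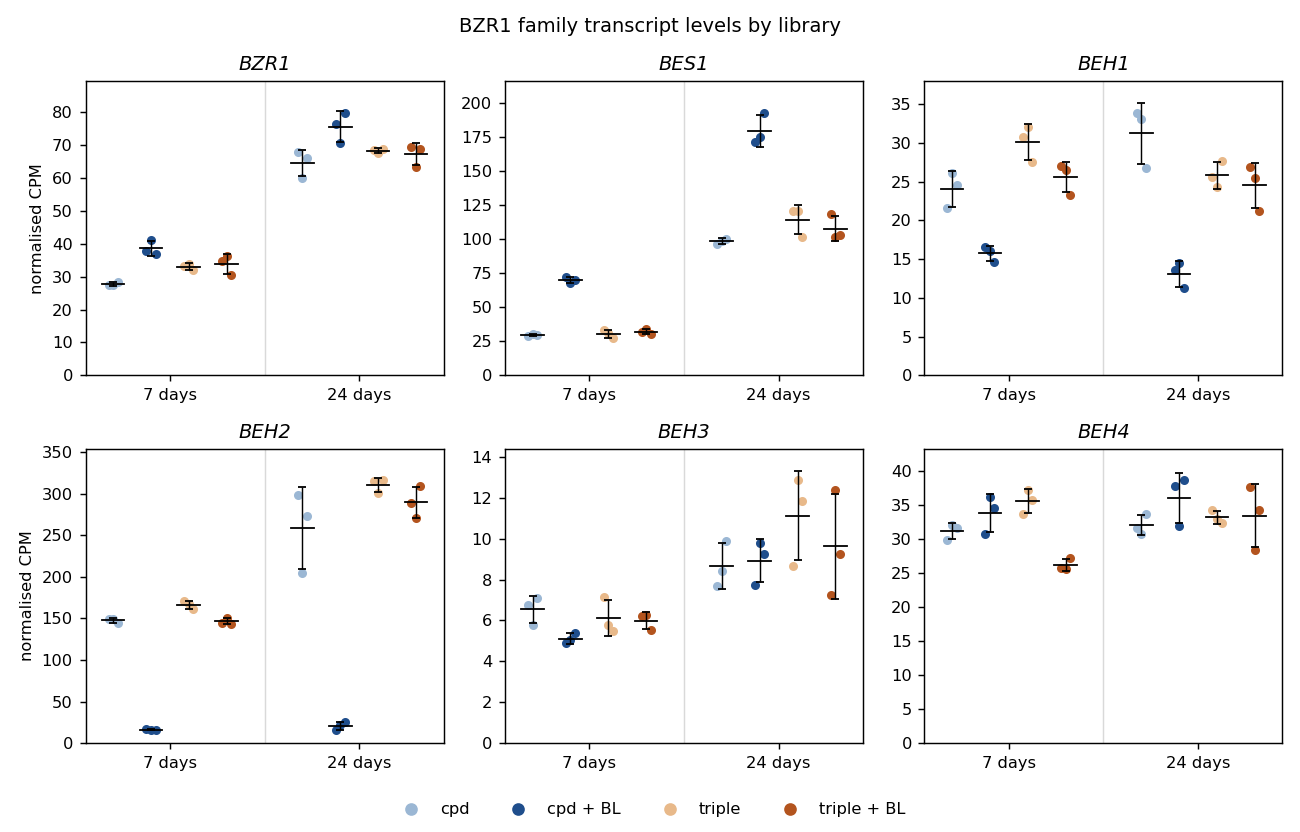
Transcript levels of the 6 family members; the vertical axes, which start at 0 and differ between panels, give normalised CPM, each point is a library, and lines with bars are the mean and SD of 3 libraries. BEH2 is at 15.59 to 25.15 CPM in BL-treated cpd and at 143.6 CPM or more in all other libraries, whereas BES1 is highest in BL-treated cpd at each age.

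Counted by call, 5 of 6 members changed with BL in 7-day cpd, 2 higher and 3 lower, beside 57.3% of all genes tested (27.7% higher and 29.5% lower). In the 7-day triple mutant 3 of 6 fell and none rose, beside 22.4% of genes called (11% lower). Those 4116 genes were 2519 with DESeq2 and 390 in the fit of all 24 libraries. In 24-day cpd 1 member rose and 2 fell, beside 9.72% of genes called, 4.54% higher and 5.18% lower (1918 genes, and 3050 with the replicate number as a block, when BZR1 was called too). In the 24-day triple mutant edgeR called 0 members and 0 of 19731 genes (0%), with 0 members and 773 genes at an unadjusted p under 0.05, and DESeq2 also called 0 of both. The BL effect differed between genotypes for 5 of 6 members at 7 days, beside 41% of genes (22.3% higher and 18.7% lower in the triple mutant), and for 3 of 6 at 24 days, beside 2.75% (1.59% higher and 1.16% lower). The latter share, 543 genes, was 1205 with the replicate block, 1075 with DESeq2 and 2186 in the fit of all 24 libraries, and the same 3 members were called with the block and with DESeq2. At 7 days so many genes were called that the family's share there is not a result about the family. The test was passed in both ages of cpd by BES1, BEH1 and BEH2, each in the same direction at both ages. The share of all genes that did so was not counted, so this too is not a result about the family.

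**Figure D3:**
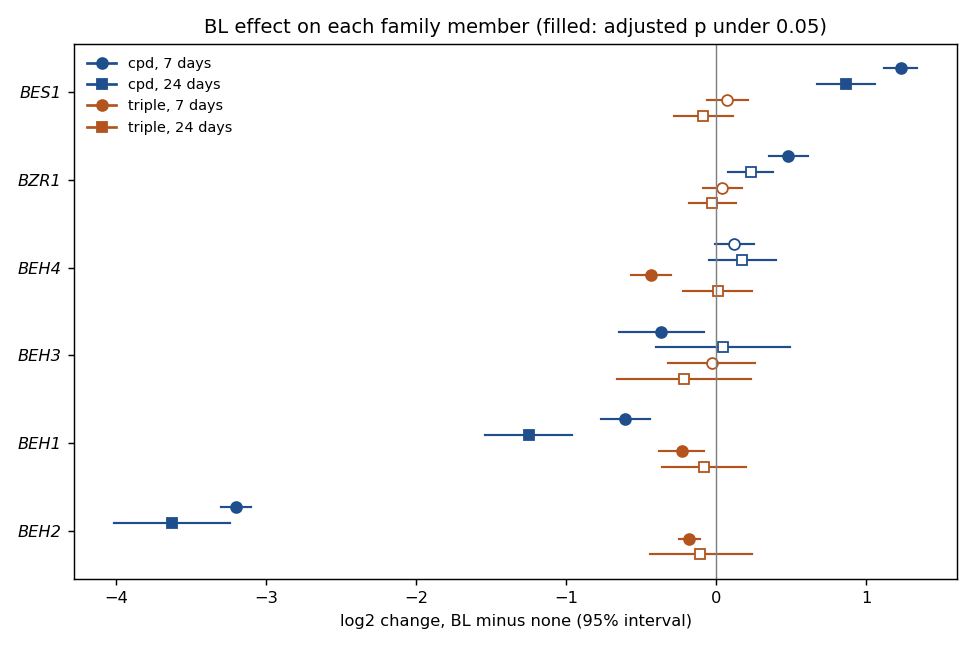
BL effect on each member; the horizontal axis is the log2 change from untreated to BL-treated libraries with its 95% interval, colours are genotypes, circles 7 days and squares 24 days, and filled symbols passed the test. BES1 lies to the right and BEH1 and BEH2 to the left of 0 in cpd at both ages, and BEH4 in the triple mutant at 7 days lies to the left.

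The size of the BL effect in cpd was compared between ages in the fit of all libraries. The effect on BEH1 was lower at 24 days than at 7 days by 0.64 ± 0.16 on the log2 scale (adjusted p = 0.0162), a larger fall, and the effect on BES1 was lower by 0.37 ± 0.11 (adjusted p = 0.0367), a smaller rise. Of all genes 9.68% were called, 4.16% lower. The BEH1 call was lost without replicate 1 of untreated 7-day cpd (adjusted p = 0.0518). The BES1 call was lost when any of 11 of the 12 libraries was left out, with adjusted p-values of up to 0.0891, and was kept without replicate 3 of BL-treated 24-day cpd. For BEH2 the difference was -0.43 ± 0.18 (adjusted p = 0.134), which passed without replicate 2 of untreated (0.0242) or replicate 3 of BL-treated 24-day cpd (0.0369) and with replicate 3 left out of all 24-day groups (0.0495), a setting added once values were known. These were 3 of 17 alternatives, over which the difference ran from -0.58 to -0.27 and the adjusted p up to 0.318; it was smallest without replicate 1 of BL-treated 24-day cpd. For BZR1 it was -0.25 ± 0.10 (adjusted p = 0.109, and 0.042 with the replicate block). In the triple mutant 0 of 6 members had a different BL effect at the 2 ages, beside 0.0752% of genes. BEH4 alone had an unadjusted p under 0.05 there, and DESeq2 likewise called 0 members.

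Levels were also compared between genotypes. Without BL at 7 days, 4 of 6 members were higher in the triple mutant than in cpd (27.9% of genes called, 12.9% higher), by 0.26 ± 0.07 for BZR1, 0.33 ± 0.08 for BEH1, 0.17 ± 0.03 for BEH2 and 0.19 ± 0.07 for BEH4 on the log2 scale, with adjusted p of at most 0.0203. Their libraries did not overlap between genotypes, for example 27.38 to 28.33 against 32.01 to 33.89 CPM for BZR1. The call for BEH4 was lost without replicate 1 of untreated cpd or replicate 2 or 3 of the untreated triple mutant (adjusted p = 0.123, 0.0987 and 0.0577) and with DESeq2 (0.0976). In the fit of all 24 libraries BZR1 alone of the 4 was called, and 1031 genes in place of 5132. At 24 days edgeR called 0 of 6 between untreated genotypes (1.04% of genes called). The libraries of BES1 (96.58 to 100.5 CPM in cpd, 101.9 to 120.7 in the triple mutant) and BEH2 (204.3 to 298.6 and 300.7 to 315.7 CPM) were narrowly apart there too. The share of all genes without overlap was not counted at either age. BES1 alone of the members had an unadjusted p under 0.05 (0.0262), as did 3809 of all 19731 genes. With DESeq2 or with the replicate block 0 members were called. The background itself was unsteady: 206 genes were called, against 1422 with the block, 1061 with DESeq2, and 15 without replicate 1 of untreated cpd to 1123 without replicate 3 of the untreated triple mutant.

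With BL, the genotypes differed in 5 of 6 members at 7 days (2 higher and 3 lower in the triple mutant, beside 53.4% of genes called, 27.5% higher and 25.9% lower) and in 3 at 24 days (2 higher and 1 lower, beside 11.1%, 5.6% higher and 5.48% lower, or 2185 genes, and 3654 with the replicate block). BEH2 was 9.14-fold higher in the treated triple mutant than in treated cpd at 7 days and 13.9-fold higher at 24 days (adjusted p = 4.47e-58 and 3.09e-07). BES1 was 2.17-fold and 1.66-fold lower (adjusted p = 1.46e-28 and 0.000374), and BEH1 was 1.63-fold and 1.88-fold higher (adjusted p = 2.29e-11 and 0.00121). At 7 days BEH4 was also lower, by 0.36 ± 0.07 on the log2 scale, and BZR1 by 0.18 ± 0.06 (adjusted p = 5.93e-06 and 0.0108); at 24 days they differed by -0.10 ± 0.10 and -0.16 ± 0.07 and were not called. The 7-day call of BZR1 was lost without replicate 2 of BL-treated cpd or replicate 3 of the BL-treated triple mutant (0.0793 and 0.169) and with DESeq2 (0.0517). These comparisons share their treated libraries with those of the BL effect.

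Levels per length were set side by side for the make-up of the family, as CPM per kb of annotated exon, with the summed length of all exon stretches from 1564 bases for BEH1 to 2437 for BES1. In untreated 7-day cpd BEH2 made up 58% ± 1.2 (SD, n = 3) of the family sum, BEH4 12.5% ± 0.33, BEH1 10% ± 0.83, BZR1 9.4% ± 0.28, BES1 7.99% ± 0.11 and BEH3 2.09% ± 0.24. With BL the order changed to BES1 at 31.4% ± 1.4, BEH4 at 22.6% ± 1.7, BZR1 at 21.8% ± 0.85, BEH1 at 11% ± 0.65, BEH2 at 10.6% ± 0.43 and BEH3 at 2.72% ± 0.17. BEH4 and BZR1 overlapped in that order, as did BEH1 and BEH2, and without BL BEH1 and BZR1 overlapped. The share of BEH4 thus went up while its level did not pass the test, because the sum went down from 153.2 ± 2.63 to 91.82 ± 1.86 CPM per kb.

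At 24 days BEH2 held 56.6% ± 4.5 of the sum in untreated cpd and 7.81% ± 1.4 with BL, and BES1 held 14.9% ± 1.9 and 45.9% ± 0.57. The sum was 273.6 ± 31.3 CPM per kb without BL and 160.5 ± 9.29 with BL. In the triple mutant the share of BEH2 was 57.6% ± 0.65 and 57.1% ± 0.82 at 7 days, and 60% ± 1.1 and 59.2% ± 2 at 24 days, without and with BL. The sum of the triple mutant was 173.9 ± 5.92 and 154.2 ± 5.03 CPM per kb at 7 days, and 311.7 ± 4.54 and 294.3 ± 14.5 at 24 days. No test was made on these shares and sums, which combine members chosen with results known.

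**Figure D4:**
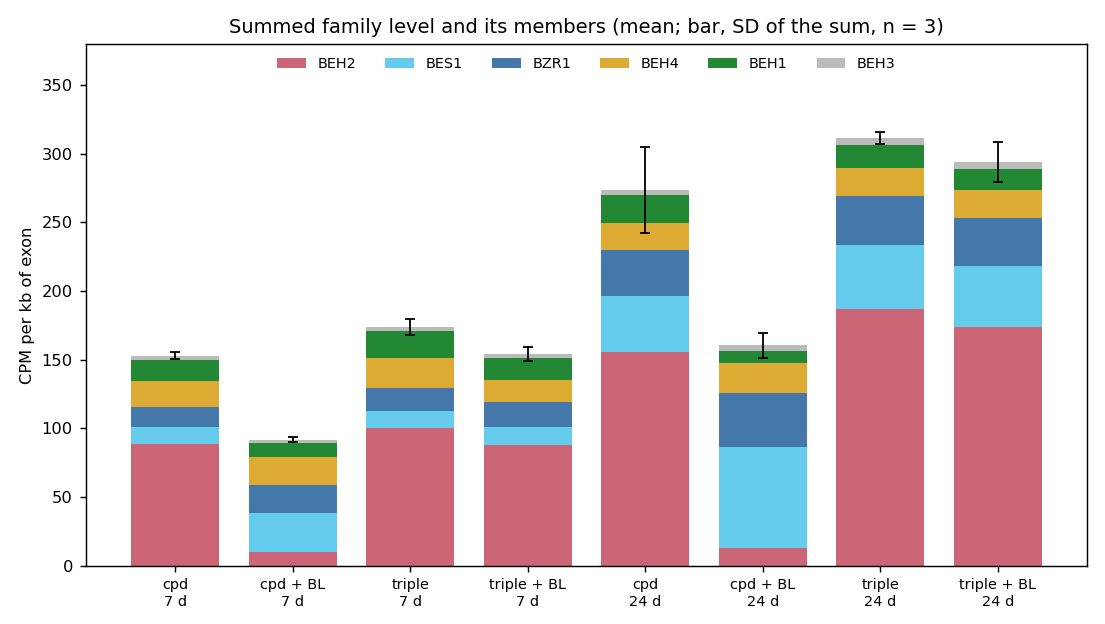
Summed family level by group; the vertical axis is CPM per kb of exon, coloured segments are member means, and bars are the SD of the sum over 3 libraries. In BL-treated cpd the BEH2 segment shrinks from 88.8 to 9.69 at 7 days and from 156 to 12.6 at 24 days, while the BES1 segment grows from 12.2 to 28.8 and from 40.5 to 73.7.

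BEH2 and BES1 had the largest fall and the largest rise of the family with BL in cpd at both ages. The ratio of BEH2 to BES1 per length separated BL-treated cpd from the other 6 groups in every library, which follows from those changes and is not a separate result. It was 7.54, 7.17 and 7.06 in untreated 7-day cpd and 0.339, 0.343 and 0.327 with BL. At 24 days it was 4.54, 3.03 and 3.99 without BL and 0.136, 0.182 and 0.191 with BL. In the triple mutant it stayed between 6.54 and 8.53 at 7 days and between 3.58 and 4.55 at 24 days, treated or not. BEH2 thus exceeded BES1 in all libraries other than those of BL-treated cpd, where BES1 exceeded BEH2. The ratio of BES1 to BZR1 per length was 0.682 to 0.883 in the 9 other 7-day libraries and 1.31 to 1.51 in BL-treated cpd.

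**Figure D5:**
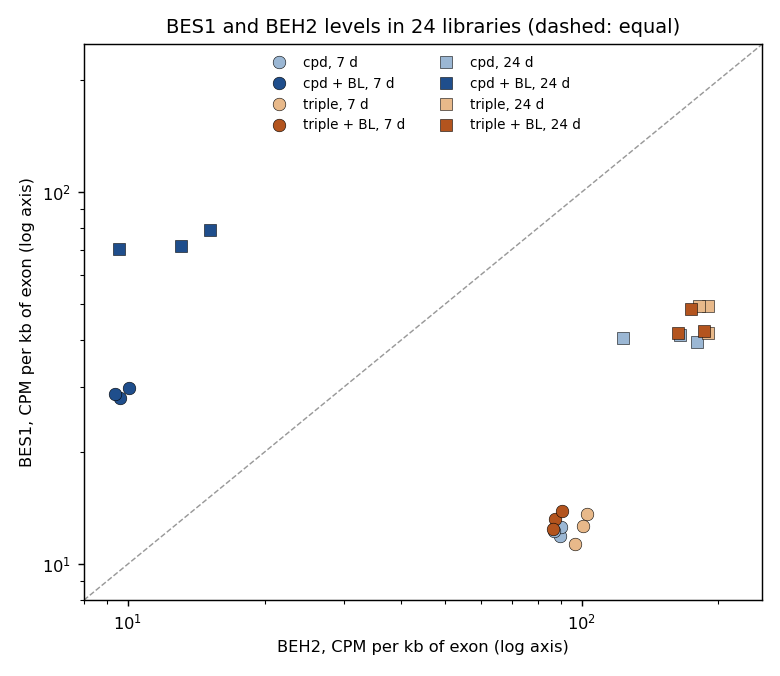
BES1 against BEH2 in 24 libraries, both as CPM per kb of exon on log axes; circles are 7 days, squares 24 days, colours are genotype and treatment, and the dashed line marks equal levels. The 6 libraries of BL-treated cpd lie above the line and the other 18 below it.

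The order of the 8 groups also showed an age pattern. BES1 was lowest in 3 overlapping groups, untreated 7-day cpd and both 7-day triple mutant groups (means of 29.85 to 32.07 CPM), then stood at 70.15 in BL-treated 7-day cpd, at 98.62, 107.7 and 114.4 CPM in untreated cpd and in the treated and untreated triple mutant at 24 days, and at 179.7 CPM in BL-treated 24-day cpd. BEH2 was lowest in BL-treated cpd at 7 and 24 days (16.09 and 20.91 CPM, overlapping) and highest in the 24-day triple mutant (289.4 CPM with and 310.6 CPM without BL, overlapping). BEH4 spanned only 26.16 to 36.04 CPM over all groups, and in its order only the lowest group, the BL-treated 7-day triple mutant, was apart from its neighbour. BEH1 ran from 13.12 CPM in BL-treated 24-day cpd to 31.24 CPM in untreated 24-day cpd, with the 6 groups without BL-treated cpd overlapping one with the next.

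Between 7 and 24 days without BL, 4 of 6 members were higher in cpd (69.9% of genes called, 34.9% higher), by 1.73 ± 0.08 for BES1, 1.22 ± 0.07 for BZR1, 0.81 ± 0.12 for BEH2 and 0.38 ± 0.11 for BEH1 on the log2 scale (adjusted p of at most 0.00503). In the triple mutant (69.4% of genes called, 34.9% higher) BES1 rose by 1.90 ± 0.08, BZR1 by 1.05 ± 0.07, BEH2 by 0.90 ± 0.12 and BEH3 by 0.86 ± 0.18 (adjusted p of at most 0.000226). BEH4 was not called in either genotype, with log2 differences of 0.04 ± 0.09 and -0.10 ± 0.09. BEH3 in cpd differed by 0.40 ± 0.18 (adjusted p = 0.0521) and was called with DESeq2's size factors (0.0418), with no filter on low counts (0.0434) and without replicate 1 of untreated 24-day cpd (0.0332), 3 of 11 alternatives. With the replicate block the value was 0.06 (adjusted p = 0.768). As that block was coded, it compares the levels of replicate 1 at the 2 ages and is not an adjusted age difference. BEH1 in the triple mutant differed by -0.22 ± 0.11 (adjusted p = 0.0808, and 0.0117 without replicate 3 of each 24-day group, a setting added later and the only 1 of 11 alternatives that called it, with adjusted p up to 0.291). Organ markers moved in the same comparisons. Of 3 leaf markers 2 were called lower and 1 higher at 24 days in cpd (median -0.96). In the triple mutant 2 were lower and 0 higher (median -1.06). The leaf marker sum of untreated cpd overlapped between ages (2470 to 2560 CPM at 7 days, 2000 to 2910 at 24 days). That of the untreated triple mutant did not (2560 to 2710 and 2090 to 2440 CPM). Of 3 root markers tested 2 were higher in cpd (median 2.03) and 3 in the triple mutant (median 3.14). These counts are to be read beside the shares of all genes called given above. The part of the organ markers in the members' differences was not tested. The 24-day libraries carry a code series of their own in the labels, so age cannot be told apart from library series, and in bulk tissue a change in cell make-up and in RNA per cell cannot be told apart either.

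The genes whose pattern over the 8 groups was most like that of each member were taken by the smallest root mean square difference of log2(CPM + 1) group means, centred within each age, among 6953 genes with a symbol and a mean of at least 5 CPM. For BEH2 these were MYB55, a MYB factor (difference 0.135), GH3.17, an amido synthetase gene of auxin metabolism (0.278), and ROT3 of BR biosynthesis (0.332). On the log2(CPM + 1) scale, which understates changes of low genes, MYB55 differed with BL in cpd by -3.37 at 7 days and -3.69 at 24 days, beside -3.12 and -3.57 for BEH2. None of these 3 genes held a BRRE core, BRRE variant or G-box in its window, beside 13.042% of all promoters with any of them.

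For BES1 the most alike genes were GTL1, a trihelix factor (0.0506), COB, the COBRA gene of oriented cell expansion (0.068), and SAH7 (0.0712). GTL1 differed with BL in cpd by 1.4 and 0.81 on that scale, beside 1.21 and 0.86 for BES1. For BEH1 they were the auxin repressor gene IAA7 (0.0914), the cold-responsive KIN2 (0.0933) and the MYB repressor gene MYBL2 (0.101). IAA7 differed by -0.7 and -1.16, beside -0.58 and -1.19 for BEH1. GTL1 and IAA7 each held a G-box. For the other members, from which the median candidate differed by only 0.174 to 0.18, the nearest genes were GRL, HST and SRF8 for BZR1 (0.028 to 0.0337), BPS1, J2 and UBC9 for BEH3 (0.0341 to 0.0369), and MGT6, emb2739 and PHB6 for BEH4 (0.0546 to 0.0645). None of the 9 held any of the 3 motifs, beside 13.042% of all promoters.

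Other genes around the family were counted from lists chosen with earlier results known, for BL in cpd. The median log2 change of all genes was 0 at both ages, and 57.3% of genes at 7 days and 9.72% at 24 days were called, against which each count below is to be read. Of the BZR1-domain beta-amylases, which carry a DNA-binding domain related to that of the family, BAM7 fell by 0.34 ± 0.06 at 7 days and by 0.34 ± 0.08 at 24 days (adjusted p = 2.31e-06 and 0.025). BAM8 rose by 0.38 ± 0.10 at 7 days (adjusted p = 0.000864) and differed by 0.19 ± 0.09 at 24 days (adjusted p = 0.233). Upstream of the family, 4 of 10 signalling genes tested were higher and 3 lower at 7 days (median 0.09; 57.3% of all genes called), and 1 was lower at 24 days, BRI1 (9.72% called). BRI1 fell by 0.77 ± 0.04 at 7 days and by 1.26 ± 0.10 at 24 days. BAK1 and the receptor-like cytoplasmic kinase gene BSK1 fell by 0.54 ± 0.03 and 0.25 ± 0.03 at 7 days, and ASKzeta, a relative of BIN2, rose by 0.42 ± 0.04. The phosphatase gene BSU1 and the kinase gene CDG1 were not tested, with 0 CPM for CDG1 in every cpd library.

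Among 5 genes for retention by 14-3-3 proteins and dephosphorylation, 2 were higher and 1 lower at 7 days (median 0.09), a share near the 57.3% of all genes, and none was called at 24 days, where no member had an adjusted p under 0.267. The 14-3-3 genes GRF8 and GRF2 rose by 0.36 ± 0.03 and 0.43 ± 0.04 at 7 days, the PP2A subunit gene PP2AB'alpha fell by 0.18 ± 0.07, and GRF6 differed by -0.05 ± 0.02. Of 11 turnover genes 2 were higher and 4 lower at 7 days (median 0) and 1 was lower at 24 days, shares near those of all genes (57.3% and 9.72%). SINAT2, for an E3 ubiquitin ligase, fell by 0.39 ± 0.06 and by 0.44 ± 0.07 at the 2 ages. PUB39 and SINAT3 fell by 0.60 ± 0.12 and 0.14 ± 0.05 at 7 days, and COP1, a light-signalling ubiquitin ligase, rose by 0.26 ± 0.08.

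Among 11 partners of BZR1 and BES1, 3 were higher and 6 lower at 7 days (median -0.17), and 1 was higher and 2 lower at 24 days (median -0.09), beside 57.3% and 9.72% of all genes called. HAT1, a homeodomain factor that works with BES1 in repression, went from 68.3 ± 3 to 11 ± 1.3 CPM at 7 days and from 93.8 to 111 CPM without BL to 13.5 to 15.1 CPM with BL at 24 days, falls of 6.22-fold and 7.04-fold (adjusted p = 1.19e-45 and 2.47e-08). MYBL2, another co-repressor, fell 1.76-fold and 1.96-fold. BIM1, a bHLH partner of BES1, and the co-repressor gene TPL fell by 0.58 ± 0.03 and 0.30 ± 0.03 at 7 days, and their 24-day differences of -0.50 ± 0.18 and -0.21 ± 0.08 were not called (adjusted p = 0.115 and 0.126). In the 7-day triple mutant 2 of the 11 partners were called higher and 4 lower with BL (median -0.03), beside 22.4% of all genes called. HAT1 was among those called higher there and rose by 0.25 ± 0.04 (adjusted p = 1.8e-06).

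Known targets moved as follows in cpd. Of 6 repressed targets tested at 7 days 5 were lower and 1 higher (median -4.02), and of 7 at 24 days 6 were lower (median -3.01), beside 29.5% and 5.18% of all genes called lower. The BR biosynthesis genes BR6OX2, CPD, DWF4 and ROT3 fell 137-fold, 6.57-fold, 44.1-fold and 40.2-fold at 7 days. The value for CPD comes from plants mutated in that gene and is not comparable with the others. All 6 induced targets tested were higher at each age (medians 3.93 and 1.80), beside 27.7% and 4.54% of all genes. PRE6, a growth-promoting helix-loop-helix gene, rose 22.8-fold, the auxin repressor gene IAA19 rose 8.01-fold and the expansin gene EXPA8 rose from 0.095 to 5.19 CPM (adjusted p = 2.61e-21). SAUR15 had 0 counts in untreated 7-day cpd and was at least 26.6-fold higher with BL, against a floor of 3 counts over the group; the median of 3.93 is the same with SAUR15 at that bound.

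Read sharing within the family was small by sequence. Of the runs of 50 bases in exons, 1.238% of those of BZR1 and 0.941% of those of BES1 also occurred in another member, and 0% of those of BEH1, BEH2, BEH3 and BEH4. BZR1, BES1 and BEH4 overlap a neighbouring gene in the annotation, and whether counting used strand is not stated in the sources at hand. The neighbour of BZR1, AT1G75090, had 0.795 CPM at 7 days with and without BL, and that of BEH4, AT1G78710, had at most 0.0333 CPM in cpd. The antisense gene AT1G09523, which also overlaps BZR1, was not analysed here. The neighbour of BES1, AT1G19360, had 62.7 CPM without and 52.1 CPM with BL at 7 days and 44.9 and 45.5 CPM at 24 days, a difference opposite to that of BES1 at 7 days.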

How the data were processed

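The deposited data were 1 table of raw read counts by locus (whole numbers), with a column for each of 24 seedling libraries; 0 columns were left out. Trimmomatic 0.36, HISAT2 2.1.0, HTSeq 0.9.1 and TAIR10 are named in the submitters' processing notes, without role or settings. Groups follow the labels; the design text's spelling bri1-701 was used where the genotype label has brl1-701. Family members and gene lists were chosen with earlier results of these data known. The test was edgeR 4.0.16 under R 4.3.3 after TMM normalisation (quasi-likelihood, filterByExpr with a minimum count of 10, Benjamini-Hochberg over all genes), each age in its own fit of 12 libraries with 18378 or 19731 genes, and contrasts of age in a fit of all 24 with 19935. SEs are the absolute log2 change over the square root of F. CPM levels use TMM factors over all libraries. Alternatives were DESeq2 1.42.0, its size factors, no filter, other sets of libraries, a replicate block and each library left out. Positions, exon lengths and promoters come from RefSeq TAIR10.1 alone and were not combined with coordinates of the deposited table, which has none. Named genes were all members, up to 4 per list by adjusted p in 7-day cpd and the 3 most alike per member. A count of 0 is compatible with up to 3 counts; floors cover counting error only. Deviations of same-numbered libraries from their group means were correlated across genes. At 24 days r ran from -0.051 to 0.757 and was over 0.1 in 15 of 18 pairs; replicate 1 fell short across genotypes (0.091, 0.029 and -0.051). Every pair passed for BL in cpd, BL in the triple mutant and genotypes with BL, and only there are the numbers read as pairing libraries. The main test did not use this pairing in any comparison. The replicate block was run as an alternative for all comparisons, also where the libraries share only a number. At 7 days r was -0.037 to 0.063.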

Additional observations from a re-analysis of the deposited data

Results flagged for a closer look

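The BL effect differed between the genotypes, by a test of the difference itself (triple mutant minus cpd, log2 scale), for BZR1 (-0.44), BES1 (-1.16), BEH1 (0.38), BEH2 (3.02) and BEH4 (-0.55) at 7 days and for BES1 (-0.96), BEH1 (1.17) and BEH2 (3.52) at 24 days. For BEH4 the difference came with a fall in the triple mutant and no call in cpd, unlike the others, whose larger change was in cpd. In cpd the BL effect at 24 days minus that at 7 days was -0.37 for BES1 and -0.64 for BEH1.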

How the results depend on the processing

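The calls of BES1, BEH1 and BEH2 for BL in cpd, at both ages, and for their 24-day differences between genotypes with BL and in BL effect held under every alternative. With 1 library left out, 606 of 648 member values kept direction and call, 24 lost the call, 4 gained it and 14 changed sign; DESeq2 kept 78 of 84. In 1 fit of all 24 libraries 1 member each was called for BL in the 7-day triple mutant (BEH4; 3 otherwise) and for untreated genotypes at 7 days (BZR1; 4 otherwise). The members whose BL effect in cpd differed between ages numbered 0 to 3 with 1 library left out, 0 without replicate 1 of untreated 7-day cpd. With DESeq2 size factors the summed level of the untreated 24-day triple mutant was 572.4 CPM instead of 563.3. The cause of these changes was not tested.

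Counts over all genes moved more than those of members. In the fit of all 24 libraries 6484 genes were called between treated genotypes and 3536 for the BL effect between genotypes at 7 days (9818 and 7536 otherwise), and 4118 for BL in cpd and 4703 between treated genotypes at 24 days (1918 and 2185 otherwise). With 1 library left out these 24-day counts went down to 917 (without replicate 1 of BL-treated cpd) and 1032 (the same library), and that of the BL effect between genotypes, 543, to 326 (again without it). For the BL effect between ages 1929 genes were called in cpd (2946 with the block) and 15 in the triple mutant (77 with the block, 76 with DESeq2, 0 to 257 with 1 library left out).

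Sign changes concerned uncalled log2 differences near 0. Leaving out 1 library, those for BL in the triple mutant ran from -0.105 to 0.097 (BEH3) and -0.015 to 0.108 (BZR1) at 7 days, and from -0.09 to 0.104 (BEH4), -0.055 to 0.006 (BZR1) and -0.156 to 0.02 (BEH1) at 24 days. BES1 between untreated genotypes at 7 days ran from -0.026 to 0.11, BEH3 with BL in 24-day cpd from -0.039 to 0.146, BEH3 and BEH4 between treated genotypes at 24 days from -0.101 to 0.29 and -0.186 to 0.007, and BEH4 between ages for BL in cpd from -0.012 to 0.144. BEH4 with BL in the 24-day triple mutant was -0.002 with DESeq2 and with its size factors. It was -0.018, and BEH1 0.074, with replicate 3 left out of all 24-day groups, chosen after the data were seen.

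With the replicate block 81 of 84 member values kept direction and call. The exceptions were BZR1 for BL in 24-day cpd and between ages, now called, and BEH4 between ages in the untreated triple mutant, at 0.049 and not called. For untreated genotypes at 24 days (206 genes, and 1422 with the block) and at 7 days the libraries share only a number. At 7 days the block gave 10543 genes for BL in cpd against 10524. The 24-day spread and the low counts of BEH3 limit which differences could be detected.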
